A study of Mus musculus with 11 samples.

Results

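Fatty acid oxidation breaks long-chain fatty acids into acetyl-CoA inside mitochondria and peroxisomes, and the liver turns part of that acetyl-CoA into ketone bodies for other organs. A fatty acid is first joined to coenzyme A, then carried across the mitochondrial membranes as a carnitine ester, and then shortened in repeated rounds of dehydrogenation, hydration, oxidation and thiolysis. The fetus lives mostly on glucose, and fat-rich milk after birth makes oxidation and ketogenesis the main source of energy for the newborn; PPARα, a nuclear receptor that binds fatty acids, drives many of these genes in mouse liver. The genes described here are 32 members of this programme, chosen by name: every probe on the array whose printed symbol or current symbol was one of them was taken. All 32 were found, on 44 probes, and all 32 passed the filter for signal above background, out of 15953 genes tested and 21337 genes with a symbol; 9 members were read by several probes.

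RNA from the livers of newborn mice of hybrid 129 x C57BL/6 background was hybridised, 1 sample per array, to one-colour Agilent whole mouse genome arrays. The mutants were double transgenic AFP-Cre/Rosa26-lsl-NICD mice, in which Cre recombinase under the alpha-fetoprotein (AFP) promoter, active in hepatoblasts and their progeny, switches on the intracellular domain of Notch (NICD). The controls were mono transgenic Rosa26-lsl-NICD mice, which carried the same silent NICD allele without Cre; mice with Cre alone were not analysed here, and what Cre does by itself cannot be told apart from what NICD does. There were 3 mutants and 3 controls at day 2 after birth, and 3 mutants and 2 controls at day 0. By their signal for Xist and Y-linked genes, each day 2 group held 1 male and 2 female samples, whereas the 3 day 0 mutants were female and the 2 day 0 controls male, so sex and genotype cannot be told apart at day 0. Sex also differed between the days within each genotype. It is therefore unbalanced in the comparisons with age, over both days and of the difference between days as well.

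Values are log2 signals relative to the 75th percentile of the same array, so that a difference of 1 is a 2-fold change, and they are read between groups for 1 gene and not between genes. That percentile lay at a signal of 607.7 to 1301.5, and 63.3% to 68.6% of the spots of an array were well above background. Arrays of a group correlated at 0.983 or more over all genes, apart from day 0 mutant replicate 3, whose correlations with the other day 0 mutants were 0.954 and 0.952. On that array 25 of the 32 members lay below both other day 0 mutants by any amount, for which no all-gene share was computed. By a factor of 2 or more, 4 members lay below them and 2 above, beside 8.02% of all genes below and 8.15% above. Member results whose call turns on that array are given with and without it. For day 2 genotype differences and for controls, which do not use that array, the difference itself does not move and only its error does, because 1 spread is fitted to all arrays. Replicate numbers were also slide numbers, and each group kept 1 position on the slides, so that position and group cannot be told apart.

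The first comparison asked how the programme moved over the first days of suckling. Most members rose between day 0 and day 2 in both genotypes, with Cidec, Ehhadh and Acot1 to Acot4 among the larger changes in each. In mutants 19 of the 32 members rose and 0 fell at an adjusted p under 0.05 (limma), where 9.39% of all genes tested rose and 11.3% fell; at an unadjusted p under 0.05 the members' count of falls was also 0. In controls 17 rose and 1 fell, where 5.46% of all genes rose and 5.72% fell. The median change of the members was 0.85 in mutants and 0.90 in controls, against -0.004 and -0.02 for all genes. With pup sex as a covariate these member medians were 0.85 and 0.86. Then 19 members rose in mutants and 4 in controls, where 2004 and 316 of 15953 genes were called in either direction.

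The day 2 and day 0 ranges did not overlap, with day 2 higher, for 25 members in mutants (20.8% of all genes) and for 29 in controls (28.7% of all genes). With day 2 lower they did not overlap for 0 members in mutants (22.2% of all genes) and for 2 in controls, Pex11a and Vnn1 (28% of all genes). Of the called members, 16 were called in both genotypes; Acads, Cpt1a and Fabp1 were called in mutants and not in controls, and Etfa and Pex11a in controls and not in mutants. None of the 32 passed the test of the difference between the 2 genotypes' changes, so these partial lists do not show that the genotypes differ. The 2 sets of changes share no array, and over the 32 genes they correlated at a Pearson r of 0.85 and a Spearman rho of 0.822, as a description over genes of 1 pathway; the change was larger in controls for 20 of 32. That count turned on the scaling between arrays: it was 6 of 32 with quantile scaling and 7 of 32 in the authors' normalised table. Without day 0 mutant replicate 3 the counts were 20 risen in mutants and 25 in controls, beside 10.1% and 13.8% of all genes. Without the first or the second day 0 control, which leaves 1 such array, the members' median change in controls was 0.89 or 0.94.

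**Figure D1:**
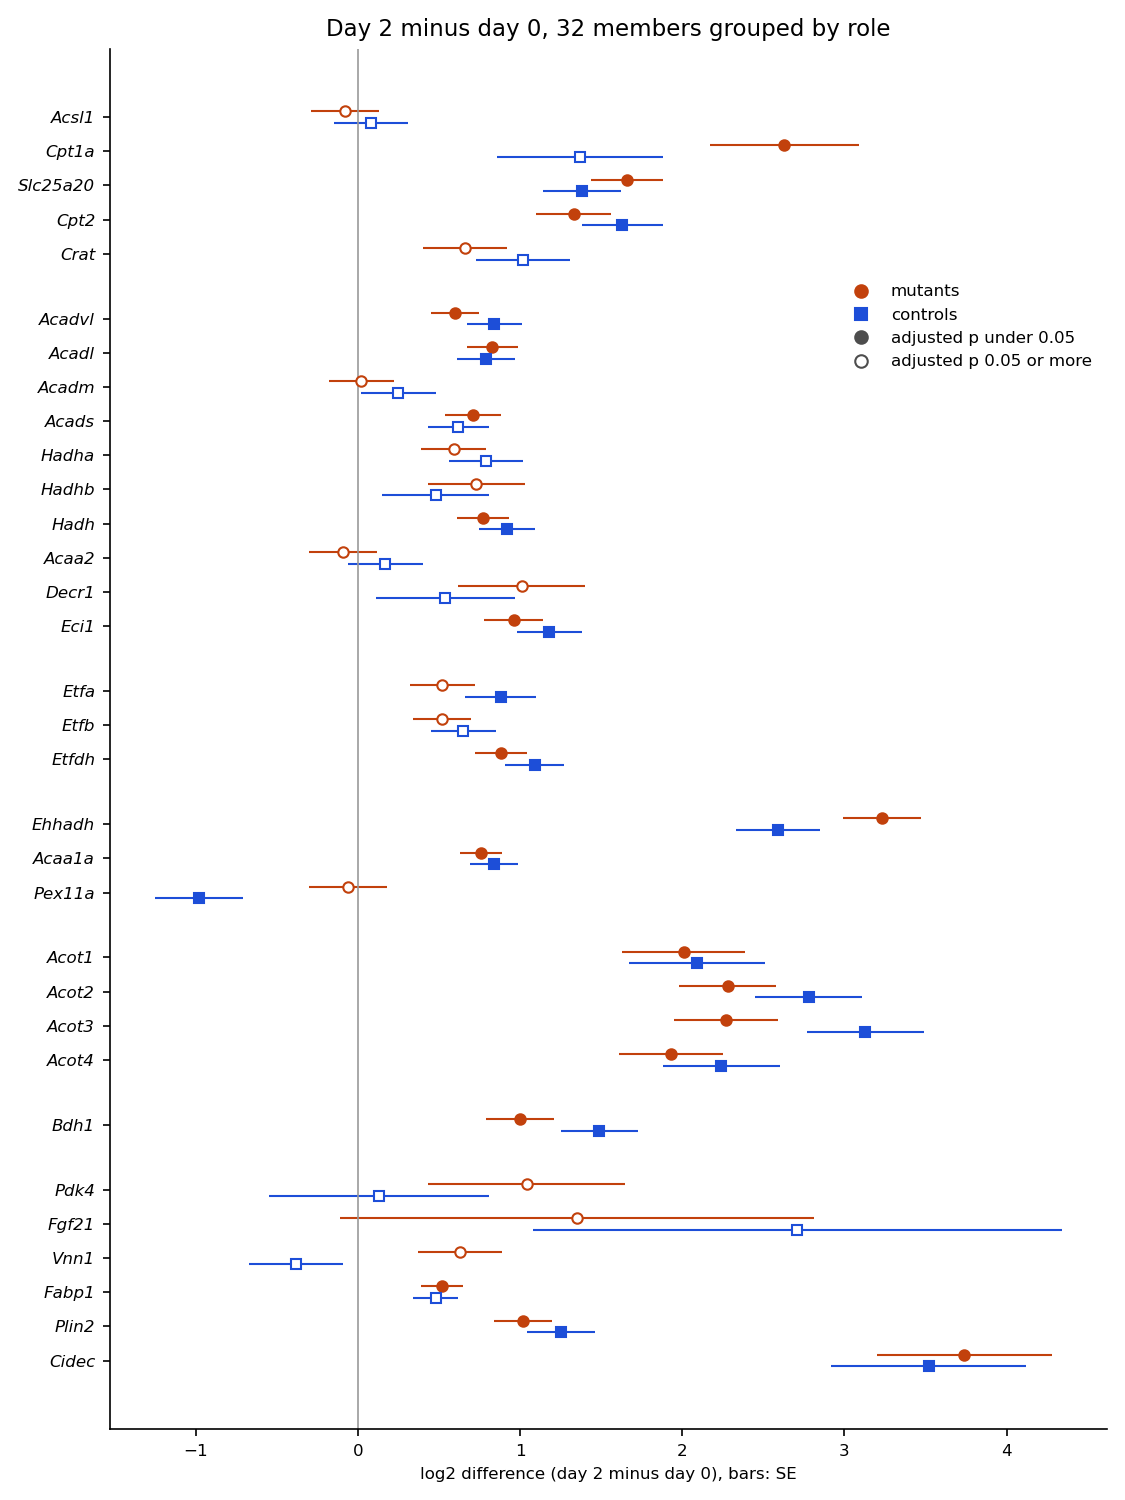
Change of each member between birth and day 2 (log2, day 2 minus day 0, with SE), ordered by role, for 3 day 2 against 3 day 0 mutants and for 3 day 2 against 2 day 0 controls; filled points have an adjusted p under 0.05. Cidec, Ehhadh and Acot1 to Acot4 lie at 1.93 or more in both genotypes, as Cpt1a does in mutants and Fgf21 in controls, while Acsl1, Acadm and Acaa2 lie near 0 in both.

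The second comparison asked what NICD with Cre changed in the programme. Averaged over both days with equal weight, 5 of 32 members were lower in mutants than in controls (Fabp1, Acadvl, Ehhadh, Acsl1 and Hadh) and 0 were higher, where 6.93% of all genes were lower and 8.78% higher. Before adjustment, 15 members had a p under 0.05 with a lower value and 2 with a higher one, where 15.6% of all genes had one with a lower value and 14.2% with a higher one. With pup sex as a covariate 1 member was lower over both days and 0 higher, where 1081 of 15953 genes were called in either direction. At day 2, Fabp1, Acadvl and Acot3 were lower and Vnn1 was higher, which is 9.38% of the members lower beside 6.56% of all genes and 3.12% higher beside 9.62% of all genes. At day 0 no member passed the test in either direction, where 1.59% of all genes were higher and 0.702% lower; 4 members had an unadjusted p under 0.05 with a lower value and 0 with a higher one, beside 7.07% and 7.92% of all genes.

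Fitted differences were negative for 25 of 32 members over both days, for 26 at day 2 and for 25 at day 0, with medians of -0.34, -0.33 and -0.28, against medians of -0.051, -0.095 and -0.009 for all genes. A lower median was not particular to the members. At day 2 it was -0.26 for 18 tricarboxylic acid cycle genes and -0.66 for 12 hepatocyte markers, and 3.05 for 10 bile duct markers. At day 2 all mutants lay below all controls for 15 members (24.6% of all genes) and above them for 1 (20.8% of all genes). At day 0 they lay below for 12 members (15% of all genes) and above for 3 (16.7% of all genes). Replicate 1, on slide 1, was the lowest array of its group for 26 of 32 members in day 2 mutants and for 23 in day 2 controls. Within each slide, the day 2 difference was negative for 26, 23 and 26 of the 32 members on slides 1, 2 and 3, and the day 0 difference for 19 and 20 on slides 1 and 2. No share of all genes was computed for the lowest array or within slides, so these counts cannot be called particular to the members.

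The small lower shift depended on how arrays were scaled. With quantile scaling the median over both days was -0.25 with 22 members negative, 1 was called higher (Acaa1a) and 0 lower. At day 2 the quantile-scaled median was -0.03 with 18 negative, 2 were called higher (Vnn1 and Acaa1a) and 0 lower. The authors' normalised table gave 2 higher (Acot1 and Vnn1) and 2 lower (Acadvl and Fabp1) over both days, and 2 higher (Vnn1 and Acaa1a) and 1 lower (Acot3) at day 2, with medians of -0.25 and -0.05. Over all genes, in either direction, quantile scaling called 2440 over both days and 2250 at day 2, of 15953 tested. The authors' table gave 2429 and 2214 of 15917. The rise with age did not depend on the scaling in this way: over the scalings tried the members' median stayed between 0.79 and 1.04 in mutants and between 0.64 and 1.10 in controls. Single calls in controls did turn on it: the rises of Acadvl, Acadl, Hadh, Etfa and Acaa1a, at 0.55 to 0.61, did not pass with quantile scaling, nor those of Acadl, Hadh, Etfa, Etfdh and Acaa1a in the authors' table.

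No member passed the test of whether the genotype difference itself changed between day 0 and day 2, where 0.232% of all genes passed upwards and 0.0376% downwards. Before adjustment 2 members had a p under 0.05, both with a more positive difference at day 2, and 0 had one in the other direction, beside 8% of all genes upwards and 6.63% downwards, so the members' count is no more than that of genes at large. These were Vnn1, with a change in the difference of 1.01 ± 0.39 (SE, adjusted p = 0.29), and Pex11a, with 0.92 ± 0.36 (SE, adjusted p = 0.286), named here after their values were seen. Without day 0 mutant replicate 3 the counts of members lower in mutants were 6 over both days, 1 at day 0 and 12 at day 2, beside 12.6%, 2.35% and 15.1% of all genes.

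**Figure D2:**
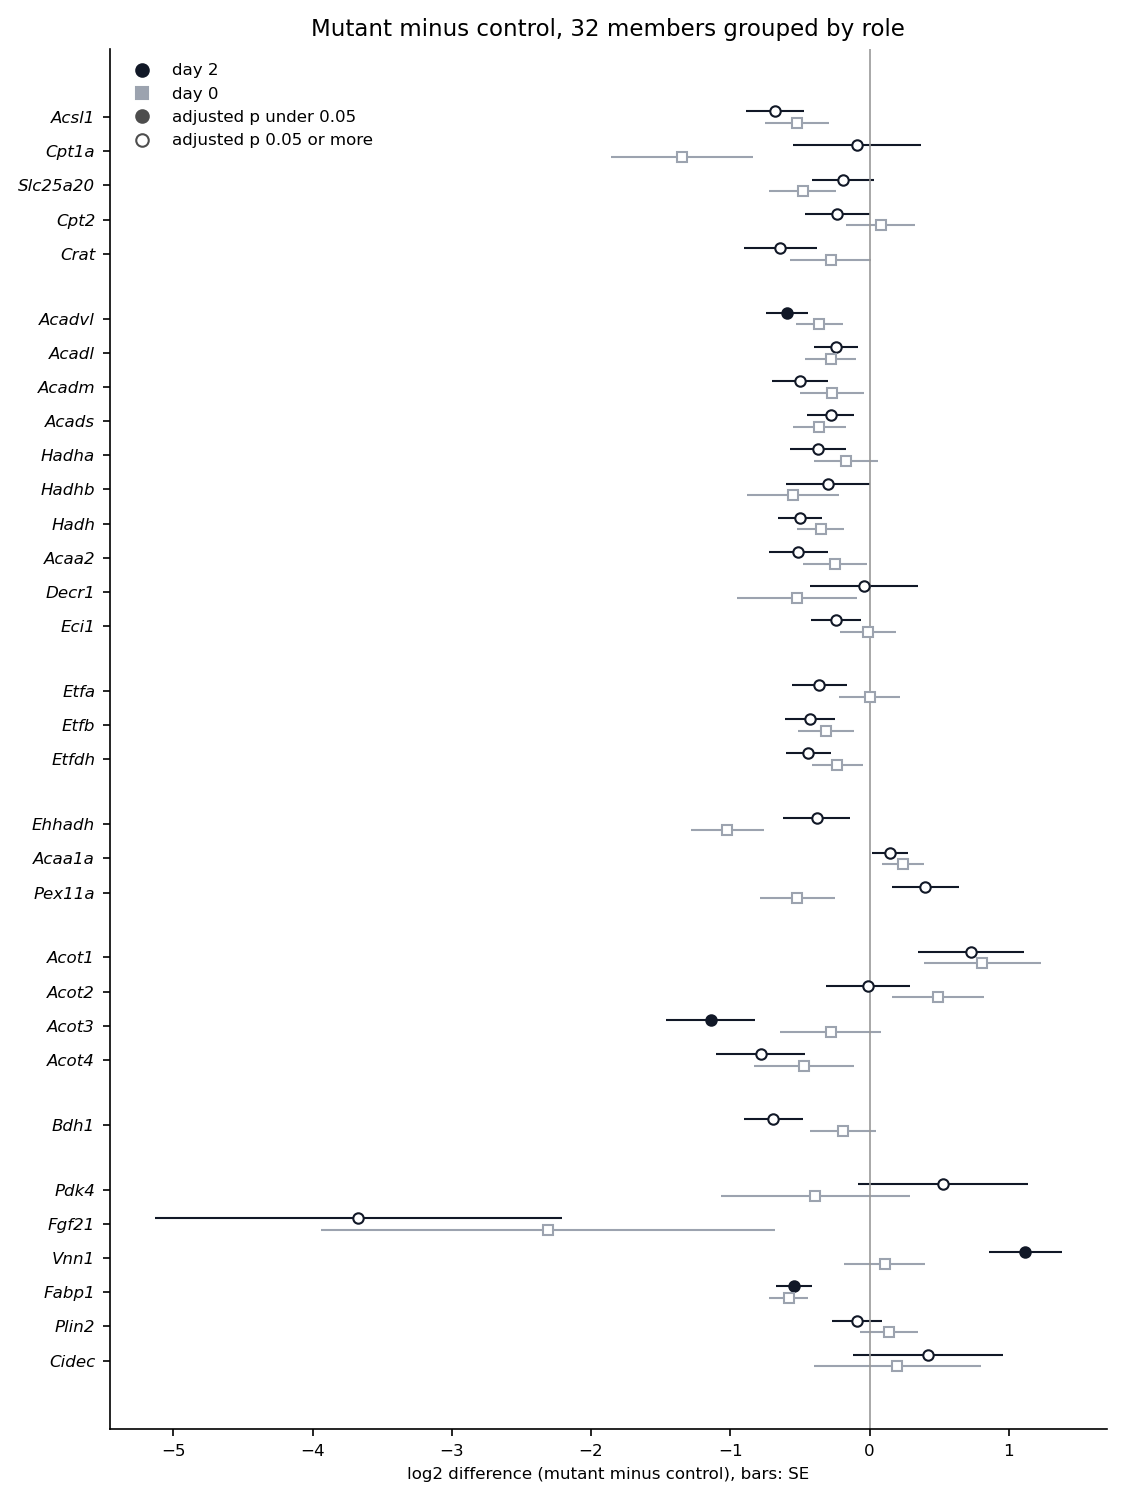
Mutant minus control difference of each member (log2, with SE) at day 2 (3 against 3 arrays) and at day 0 (3 against 2 arrays), ordered by role; filled points have an adjusted p under 0.05. Most points lie left of 0, few are filled, and Fgf21 has both the most negative values and the widest errors.

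Entry of fatty acids into mitochondria begins with Acsl1, the long-chain acyl-CoA synthetase, whose change with age did not pass the test in either genotype. Acsl1 read 6.19, 6.18 and 6.67 in day 2 mutants and 6.97, 7.02 and 7.08 in day 2 controls. Acsl1 at day 0 read 6.64, 6.64 and 5.98 in mutants and 6.94 and 6.95 in controls. The mutants of each day lay below the controls of that day; between the days the mutants overlapped and the controls nearly met. Averaged over the days, mutants minus controls gave -0.60 ± 0.16 (SE, adjusted p = 0.03), 1.52-fold lower, and with slide as a block -0.60 ± 0.18 (SE, adjusted p = 0.067); with quantile scaling it was -0.46 ± 0.16 (SE, adjusted p = 0.0904). At day 2 it was -0.68 ± 0.21 (SE, adjusted p = 0.054), which passed without day 0 mutant replicate 3 at -0.68 ± 0.14 (SE, adjusted p = 0.00883). The day 2 minus day 0 change was -0.08 ± 0.21 in mutants (SE, adjusted p = 0.808) and 0.08 ± 0.23 in controls (SE, adjusted p = 0.844). Acsl1 has 2 further probes, whose change with age was 0.20 on both in mutants and 0.51 and 0.68 in controls, while the genotype difference over both days was -0.60, -0.64 and -0.60 on the 3 probes.

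Cpt1a, the liver form of carnitine palmitoyltransferase 1 and the rate-controlling step of long-chain fatty acid entry, rose in mutants. Cpt1a read 4.21, 4.39 and 4.63 in day 2 mutants and 4.26, 4.47 and 4.77 in day 2 controls. Cpt1a at day 0 read 2.50, 2.17 and 0.68 in mutants and 2.54 and 3.72 in controls. Every day 2 array was above every day 0 array, the day 2 genotypes overlapped, and the day 0 controls differed by more than 1 unit from each other. The change with age was 2.63 ± 0.46 (SE, adjusted p = 0.0066) in mutants, a rise of 6.17-fold, and 1.37 ± 0.51 (SE, adjusted p = 0.113) in controls, which did not pass, although without day 0 mutant replicate 3 the control rise was 1.37 ± 0.33 (SE, adjusted p = 0.0182). All 3 day 0 mutants were below both day 0 controls, with a fitted difference of -1.35 ± 0.51 (SE, adjusted p = 0.252); the lowest was replicate 3, the array that stands apart.

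Slc25a20, the carnitine-acylcarnitine translocase of the inner membrane, and Cpt2, which regenerates acyl-CoA on the matrix side, rose in both genotypes. Slc25a20 read 2.07, 2.48 and 2.59 in day 2 mutants and 2.10, 2.75 and 2.87 in day 2 controls. Slc25a20 at day 0 read 0.68, 0.83 and 0.65 in mutants and 1.20 and 1.19 in controls. Every day 2 array of Slc25a20 was above every day 0 array. Cpt2 read 4.79, 5.38 and 5.44 in day 2 mutants and 5.10, 5.52 and 5.67 in day 2 controls. Cpt2 at day 0 read 4.02, 4.03 and 3.58 in mutants and 3.82 and 3.78 in controls. Cpt2 separated the days in the same way. Slc25a20 rose by 1.66 ± 0.22 (SE, adjusted p = 0.00228) in mutants and 1.38 ± 0.24 (SE, adjusted p = 0.0104) in controls, and Cpt2 by 1.33 ± 0.23 (SE, adjusted p = 0.00601) in mutants and 1.63 ± 0.25 (SE, adjusted p = 0.00652) in controls. Their mutant minus control differences over both days did not pass, at -0.33 ± 0.16 (SE, adjusted p = 0.208) for Slc25a20 and -0.08 ± 0.17 (SE, adjusted p = 0.814) for Cpt2.

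Crat, which exchanges short acyl groups between carnitine and coenzyme A, passed in no comparison with all 11 arrays, and in 2 without day 0 mutant replicate 3. Crat read 1.96, 2.13 and 2.45 in day 2 mutants and 2.68, 2.90 and 2.89 in day 2 controls. Crat at day 0 read 1.89, 1.79 and 0.88 in mutants and 1.88 and 1.72 in controls. The 3 day 2 controls were above all other arrays, and the day 2 mutants were above the day 0 mutants. The change was 0.66 ± 0.26 (SE, adjusted p = 0.0939) in mutants and 1.02 ± 0.29 (SE, adjusted p = 0.0515) in controls, neither past the threshold, and the day 2 genotype difference was -0.64 ± 0.26 (SE, adjusted p = 0.125). Leaving out that array, the change in controls was 1.02 ± 0.16 (SE, adjusted p = 0.00378) and the day 2 difference -0.64 ± 0.14 (SE, adjusted p = 0.0113), both past it.

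The Slc25a20 probe is shown because its gene rose in both genotypes, and in mutants under every alternative tried; it maps to chr9:108540472-108540531 on the plus strand of mm8, the build of the array's probe map. The probe is given 5′ to 3′ in lower case throughout, with no base marked.
Slc25a20: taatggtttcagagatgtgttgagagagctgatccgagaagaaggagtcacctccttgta

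The mitochondrial spiral itself is opened by the acyl-CoA dehydrogenases, each for a range of chain lengths. Of its 10 members 5 rose in mutants and 4 in controls, with median changes of 0.72 and 0.71. In the main fit all 10 had a negative mutant minus control difference on both days, of which 1 passed at day 2 and 2 over both days. With quantile scaling Hadhb, Acaa2 and Eci1 were positive at day 2, at 0.07, 0.01 and 0.15. Without day 0 mutant replicate 3, Acaa2, Decr1 and Eci1 were positive at day 0, at 0.01, 0.02 and 0.04. Acadvl, for very long chains, rose with age and was lower in mutants. Acadvl read 5.85, 6.12 and 6.29 in day 2 mutants and 6.48, 6.81 and 6.75 in day 2 controls. Acadvl at day 0 read 5.40, 5.50 and 5.55 in mutants and 5.85 and 5.83 in controls. Within each day the mutants were below the controls, and within each genotype day 2 was above day 0. The change with age was 0.60 ± 0.15 (SE, adjusted p = 0.0241) in mutants and 0.84 ± 0.17 (SE, adjusted p = 0.0179) in controls. Between genotypes the difference was -0.59 ± 0.15 (SE, adjusted p = 0.0277) at day 2, 1.51-fold lower, and -0.47 ± 0.11 (SE, adjusted p = 0.0213) over both days; the average over the days was -0.35 ± 0.11 (SE, adjusted p = 0.0709) with quantile scaling. The day 2 call rests on the scaling, with -0.24 ± 0.15 (SE, adjusted p = 0.337) under quantile scaling and -0.23 ± 0.12 (SE, adjusted p = 0.248) in the authors' table.

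Acadl, for long chains, rose in both genotypes by less than 1 unit. Acadl read 3.74, 4.10 and 4.0 in day 2 mutants and 4.07, 4.27 and 4.22 in day 2 controls. Acadl at day 0 read 3.28, 3.23 and 2.86 in mutants and 3.31 and 3.50 in controls. It rose by 0.83 ± 0.16 (SE, adjusted p = 0.00999) in mutants and 0.79 ± 0.18 (SE, adjusted p = 0.0274) in controls. Acads acts on short chains. Acads read 1.65, 1.87 and 1.97 in day 2 mutants and 2.14, 2.05 and 2.14 in day 2 controls. Acads at day 0 read 1.10, 1.44 and 0.83 in mutants and 1.52 and 1.45 in controls. Its rise of 0.71 ± 0.17 (SE, adjusted p = 0.0202) in mutants passed, and its change of 0.62 ± 0.19 (SE, adjusted p = 0.0625) in controls did not, though the 3 day 2 controls were all above the 2 day 0 controls; without day 0 mutant replicate 3 it was 0.62 ± 0.14 (SE, adjusted p = 0.0156), past the threshold. Acadm, the medium-chain enzyme, passed no test of age and lay at 6.16 to 6.49 in day 2 mutants and 6.57 to 6.95 in day 2 controls, against 5.83 to 6.54 in day 0 mutants and 6.49 to 6.57 in day 0 controls. Its change was 0.02 ± 0.20 (SE, adjusted p = 0.96) in mutants and 0.25 ± 0.23 (SE, adjusted p = 0.503) in controls, and the 3 day 2 mutants lay below the 3 day 2 controls. That difference was -0.50 ± 0.20 (SE, adjusted p = 0.128), and -0.50 ± 0.14 (SE, adjusted p = 0.0271) without day 0 mutant replicate 3.

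After dehydrogenation, Hadha and Hadhb, the 2 subunits of the trifunctional protein, carry out the next steps on long chains. Hadha lay at 0.97 to 1.26 in day 2 mutants and 1.25 to 1.73 in day 2 controls, against 0.25 to 0.72 in day 0 mutants and 0.48 to 0.97 in day 0 controls. Hadhb lay at 5.46 to 5.75 in day 2 mutants and 5.73 to 6.03 in day 2 controls, against 4.04 to 5.31 in day 0 mutants and 5.30 to 5.49 in day 0 controls. Neither change passed: Hadha had 0.59 ± 0.20 (SE, adjusted p = 0.0673) in mutants and 0.79 ± 0.23 (SE, adjusted p = 0.0542) in controls, and Hadhb 0.73 ± 0.30 (SE, adjusted p = 0.107) in mutants and 0.48 ± 0.33 (SE, adjusted p = 0.373) in controls. The lowest Hadhb value was again day 0 mutant replicate 3, and without that array both changes in controls passed, at 0.79 ± 0.19 (SE, adjusted p = 0.0199) for Hadha and 0.48 ± 0.14 (SE, adjusted p = 0.0419) for Hadhb.

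Hadh, the hydroxyacyl-CoA dehydrogenase for medium and short chains, both rose with age and was lower in mutants. Hadh read 5.42, 5.35 and 5.54 in day 2 mutants and 6.07, 5.92 and 5.83 in day 2 controls. Hadh at day 0 read 4.82, 4.82 and 4.36 in mutants and 5.02 and 5.01 in controls. All mutants of a day were below all controls of that day, and all day 2 arrays above all day 0 arrays. It rose by 0.77 ± 0.16 (SE, adjusted p = 0.0111) in mutants and 0.92 ± 0.17 (SE, adjusted p = 0.0139) in controls. Mutants minus controls, averaged over the days, gave -0.43 ± 0.12 (SE, adjusted p = 0.0365), and -0.40 ± 0.12 (SE, adjusted p = 0.0705) with slide as a block; with quantile scaling it was -0.28 ± 0.12 (SE, adjusted p = 0.142). At day 2 it was -0.50 ± 0.16 (SE, adjusted p = 0.0565), and -0.50 ± 0.10 (SE, adjusted p = 0.00827) without day 0 mutant replicate 3. Acaa2, the mitochondrial thiolase that ends each round, lay at 7.61 to 7.84 in day 2 mutants and 8.15 to 8.25 in day 2 controls, against 7.26 to 8.08 in day 0 mutants and 7.98 to 8.07 in day 0 controls. Its change with age was -0.09 ± 0.21 (SE, adjusted p = 0.763) in mutants and 0.17 ± 0.23 (SE, adjusted p = 0.652) in controls, and its day 2 genotype difference, with no overlap, was -0.51 ± 0.21 (SE, adjusted p = 0.125), or -0.51 ± 0.10 (SE, adjusted p = 0.00789) without that array.

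Unsaturated fatty acids need 2 auxiliary enzymes, Eci1, which shifts a double bond, and Decr1, which reduces one. Eci1 read 5.47, 5.59 and 5.82 in day 2 mutants and 5.51, 6.05 and 6.03 in day 2 controls. Eci1 at day 0 read 4.80, 4.64 and 4.55 in mutants and 4.71 and 4.65 in controls. Eci1 rose by 0.96 ± 0.18 (SE, adjusted p = 0.00792) in mutants and 1.18 ± 0.20 (SE, adjusted p = 0.00855) in controls, with all day 2 arrays above all day 0 arrays. Decr1 read -1.28, -1.33 and -1.22 in day 2 mutants and -1.52, -1.14 and -1.06 in day 2 controls. Decr1 at day 0 read -1.77, -1.74 and -3.37 in mutants and -1.58 and -1.97 in controls. The day 2 mutants were all above the day 0 mutants, of which replicate 3 was the lowest; the change of 1.01 ± 0.39 (SE, adjusted p = 0.0883) did not pass, nor did it without that array, at 0.48 ± 0.17 (SE, adjusted p = 0.077). In controls it was 0.54 ± 0.43 (SE, adjusted p = 0.441), and 0.54 ± 0.17 (SE, adjusted p = 0.0475) without that array, past the threshold.

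Electrons from the dehydrogenases reach the respiratory chain through the flavoprotein of Etfa and Etfb and its oxidoreductase Etfdh. Etfdh read 5.03, 5.24 and 5.50 in day 2 mutants and 5.54, 5.68 and 5.88 in day 2 controls. Etfdh at day 0 read 4.48, 4.42 and 4.22 in mutants and 4.68 and 4.54 in controls. All day 2 arrays were above all day 0 arrays, and the mutants of a day below its controls. Etfdh rose by 0.88 ± 0.16 (SE, adjusted p = 0.00792) in mutants and 1.09 ± 0.18 (SE, adjusted p = 0.00831) in controls, and mutants minus controls averaged -0.34 ± 0.12 (SE, adjusted p = 0.096) over the days. Etfa read 5.97, 5.89 and 6.20 in day 2 mutants and 6.25, 6.49 and 6.42 in day 2 controls. Etfa at day 0 read 5.80, 5.66 and 5.05 in mutants and 5.57 and 5.44 in controls. Within each genotype the day 2 arrays of Etfa were above the day 0 arrays. Etfa rose in controls by 0.88 ± 0.22 (SE, adjusted p = 0.0375), or 0.92 ± 0.25 (SE, adjusted p = 0.0645) with slide as a block, and had a change of 0.52 ± 0.20 (SE, adjusted p = 0.0918) in mutants. Etfb lay at 6.67 to 7.05 in day 2 mutants and 7.20 to 7.47 in day 2 controls, against 6.04 to 6.56 in day 0 mutants and 6.56 to 6.78 in day 0 controls, with changes of 0.52 ± 0.18 (SE, adjusted p = 0.0647) in mutants and 0.65 ± 0.20 (SE, adjusted p = 0.0658) in controls. All 3 genes had every day 2 mutant below every day 2 control, and none of these differences passed with all 11 arrays. Leaving out day 0 mutant replicate 3, Etfb passed at day 2, where its difference was -0.43 ± 0.13 (SE, adjusted p = 0.0413) instead of -0.43 ± 0.18 (SE, adjusted p = 0.133), and in controls with age, at 0.65 ± 0.15 (SE, adjusted p = 0.0162).

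**Figure D3:**
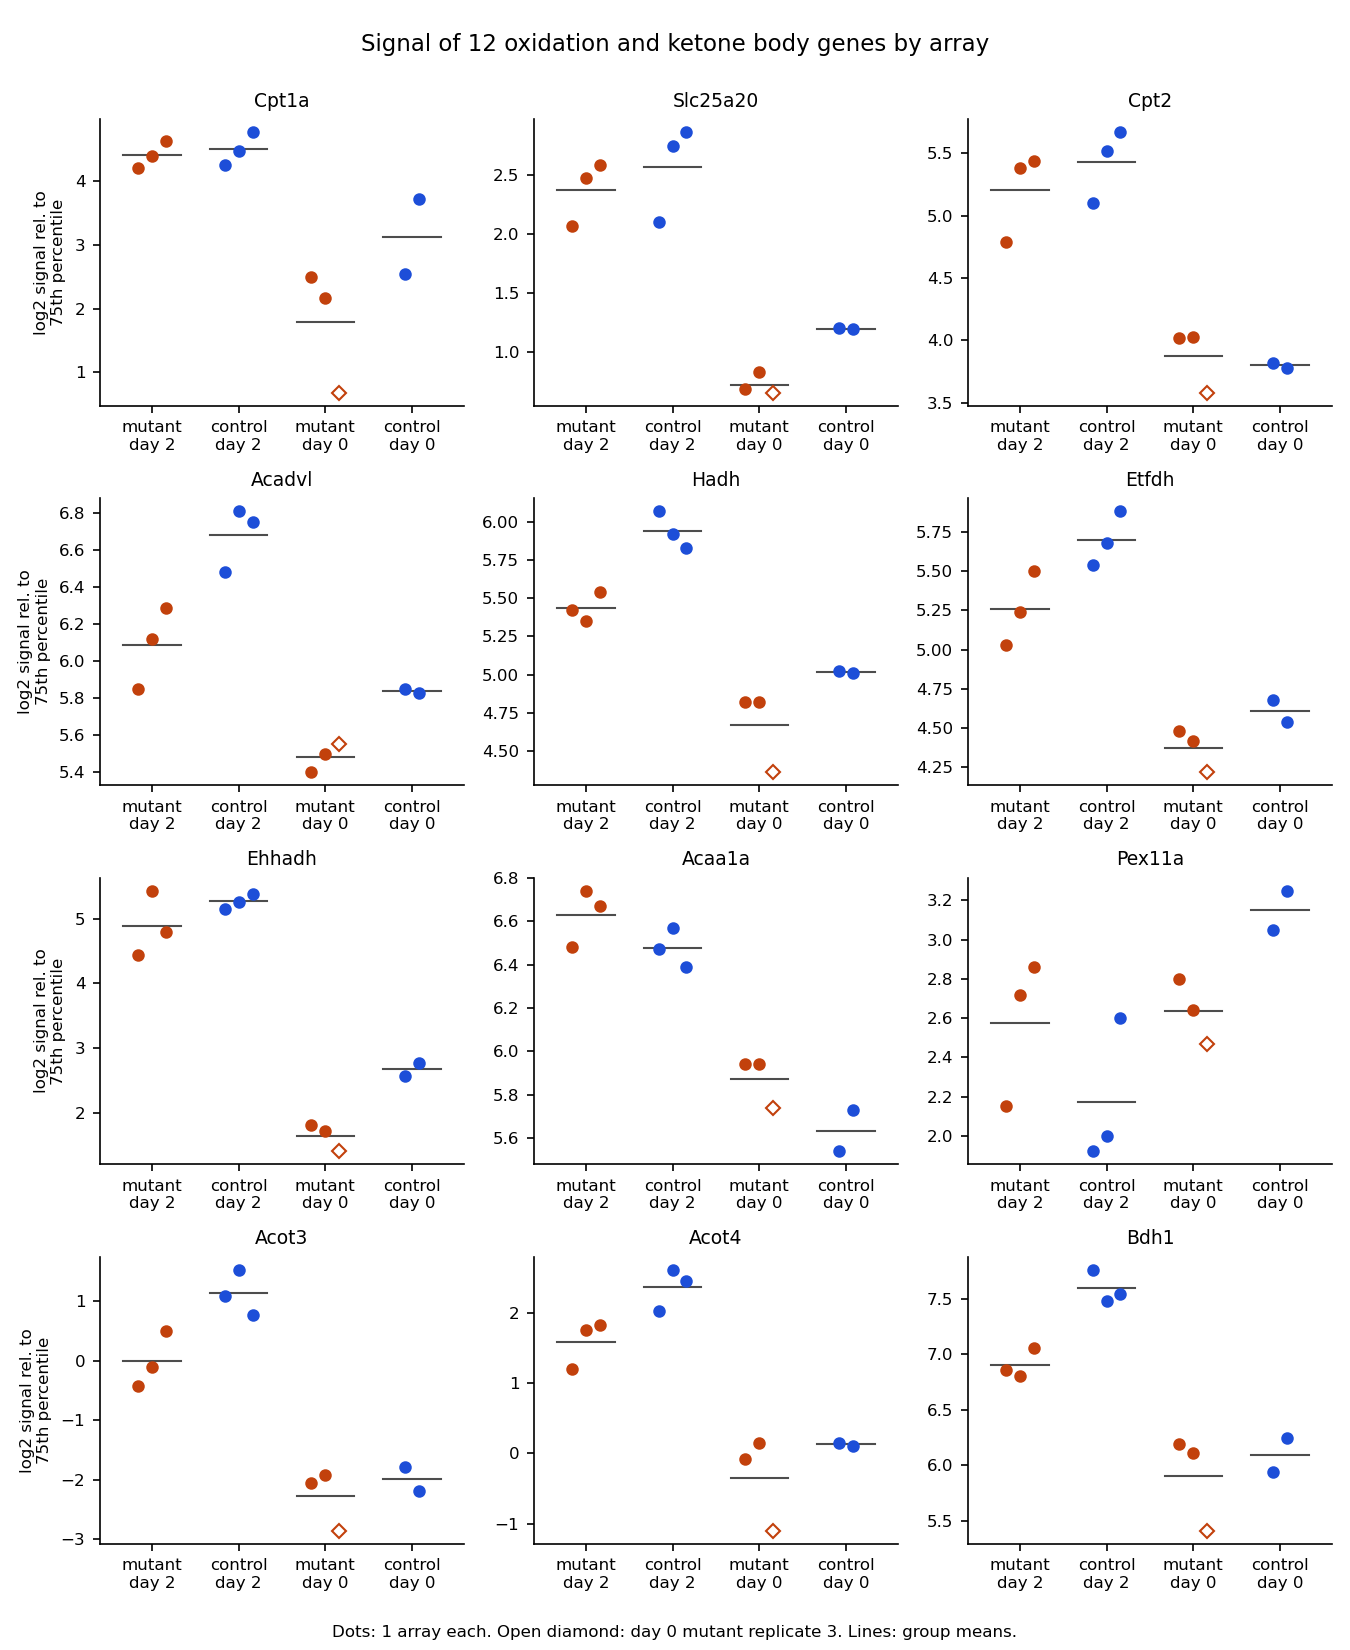
Log2 signal relative to the array's 75th percentile on each of the 11 arrays for 12 members (Cpt1a, Slc25a20 and Cpt2; Acadvl, Hadh and Etfdh; Ehhadh, Acaa1a and Pex11a; Acot3, Acot4 and Bdh1), with day 2 mutants, day 2 controls, day 0 mutants and day 0 controls from left to right and a bar at each group mean; the open diamond is day 0 mutant replicate 3. Day 2 arrays lie above day 0 arrays for Ehhadh, Cpt2 and Slc25a20, and day 2 mutants below day 2 controls for Acadvl, Hadh and Bdh1.

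Of the peroxisomal members, Ehhadh and Acaa1a rose in both genotypes and Pex11a fell in controls. Ehhadh, the peroxisomal bifunctional enzyme of the hydration and the oxidation that follows it in each round, had a larger change in mutants than any other member but Cidec. Ehhadh read 4.44, 5.43 and 4.79 in day 2 mutants and 5.15, 5.26 and 5.38 in day 2 controls. Ehhadh at day 0 read 1.82, 1.73 and 1.41 in mutants and 2.58 and 2.77 in controls. The 3 day 0 mutants were below both day 0 controls, while the day 2 genotypes overlapped. It rose by 3.23 ± 0.24 (SE, adjusted p = 0.000208) in mutants, 9.41-fold, and by 2.59 ± 0.26 (SE, adjusted p = 0.00167) in controls, 6.02-fold. Ehhadh differed between genotypes by -0.70 ± 0.18 (SE, adjusted p = 0.0278) on average over the days; the difference was -1.02 ± 0.26 (SE, adjusted p = 0.0926) at day 0 and -0.38 ± 0.24 (SE, adjusted p = 0.319) at day 2, neither past the threshold. With quantile scaling the average was -0.55 ± 0.18 (SE, adjusted p = 0.075).

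Acaa1a, the peroxisomal thiolase, rose in both genotypes. Acaa1a read 6.48, 6.74 and 6.67 in day 2 mutants and 6.47, 6.57 and 6.39 in day 2 controls. Acaa1a at day 0 read 5.94, 5.94 and 5.74 in mutants and 5.54 and 5.73 in controls. Its rise was 0.76 ± 0.13 (SE, adjusted p = 0.00685) in mutants and 0.84 ± 0.15 (SE, adjusted p = 0.0106) in controls on the brightest of its 3 probes. The other 2 probes gave larger changes, 1.58 and 2.27 in mutants and 1.73 and 2.38 in controls, so the direction is shared and the size is not. At day 2 its mutant minus control difference was 0.15 ± 0.13 (SE, adjusted p = 0.478), and 0.59 ± 0.15 (SE, adjusted p = 0.0269) with quantile scaling, past the threshold only under that scaling and in the authors' table among the scalings tried. These values are from the brightest probe. Under the main scaling the other 2 probes gave -0.10 and -0.23 at day 2, so the direction by genotype was not shared. Pex11a is a membrane protein of peroxisome division. Pex11a read 2.15, 2.72 and 2.86 in day 2 mutants and 1.92, 2.00 and 2.60 in day 2 controls. Pex11a at day 0 read 2.80, 2.64 and 2.47 in mutants and 3.05 and 3.25 in controls. It fell in controls by 0.98 on the log2 scale, with an SE of 0.27 and an adjusted p of 0.0455, or -1.07 ± 0.26 (SE, adjusted p = 0.0506) with slide as a block, and its change in mutants was -0.06 ± 0.24 (SE, adjusted p = 0.868).

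The second Acaa1a probe is shown because the size of the rise differed between probes; it maps to chr9:119195223-119196443 on the plus strand of mm8, a span longer than the 60-base probe itself. The longest run that an Acaa1a probe shares with a probe of its close paralog Acaa1b is 5 to 6 bases; whether the probes also read Acaa1b transcripts was not tested.
Acaa1a, the second probe: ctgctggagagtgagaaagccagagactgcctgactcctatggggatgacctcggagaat

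The acyl-CoA thioesterases, which split acyl-CoA into free fatty acid and coenzyme A, were the role with the largest rise: all 4 rose in both genotypes, with median changes of 2.14 in mutants and 2.51 in controls. Acot1 is the cytosolic and Acot2 the mitochondrial enzyme, and Acot3 and Acot4 are peroxisomal. Acot1 read 4.51, 5.90 and 5.50 in day 2 mutants and 4.03, 4.63 and 5.07 in day 2 controls. Acot1 at day 0 read 3.58, 3.38 and 2.93 in mutants and 2.30 and 2.68 in controls. Acot1 rose by 2.01 ± 0.38 (SE, adjusted p = 0.00878) in mutants and 2.09 ± 0.42 (SE, adjusted p = 0.0183) in controls, and at day 0 all 3 mutants lay above both controls, with a difference of 0.81 ± 0.42 (SE, adjusted p = 0.414). Acot2 read -0.21, 0.63 and 0.10 in day 2 mutants and 0.05, 0.24 and 0.27 in day 2 controls. Acot2 at day 0 read -2.36, -2.50 and -1.44 in mutants and -2.50 and -2.68 in controls. Acot2 rose by 2.28 ± 0.30 (SE, adjusted p = 0.0022) in mutants and 2.78 ± 0.33 (SE, adjusted p = 0.00237) in controls, with the genotypes overlapping at day 2.

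Acot3 rose in both genotypes and was lower in mutants at day 2. Acot3 read -0.42, -0.10 and 0.50 in day 2 mutants and 1.10, 1.53 and 0.78 in day 2 controls. Acot3 at day 0 read -2.05, -1.93 and -2.86 in mutants and -1.79 and -2.19 in controls. All 3 day 2 mutants were below all 3 day 2 controls, and the day 0 genotypes overlapped. Its change was 2.27 ± 0.32 (SE, adjusted p = 0.00318) in mutants and 3.13 ± 0.36 (SE, adjusted p = 0.00214) in controls, 4.82-fold and 8.75-fold. The day 2 difference was -1.14 ± 0.32 (SE, adjusted p = 0.0409), 2.21-fold lower, and -1.14 ± 0.35 (SE, adjusted p = 0.0657) with slide as a block and -1.09 ± 0.34 (SE, adjusted p = 0.0629) with quantile scaling; the change in the difference between days was -0.86 ± 0.48 (SE, adjusted p = 0.449). Acot4 read 1.20, 1.75 and 1.82 in day 2 mutants and 2.02, 2.61 and 2.46 in day 2 controls. Acot4 at day 0 read -0.08, 0.15 and -1.10 in mutants and 0.15 and 0.11 in controls. Acot4 rose by 1.93 ± 0.32 (SE, adjusted p = 0.00568) in mutants and 2.24 ± 0.36 (SE, adjusted p = 0.00733) in controls, and its day 2 difference, with no overlap between the genotypes, was -0.78 ± 0.32 (SE, adjusted p = 0.136), or -0.78 ± 0.21 (SE, adjusted p = 0.0244) without day 0 mutant replicate 3.

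The probes of Acot3 and of Acot4 are shown because they lie close to each other in a cluster of near copies on chromosome 12 whose transcripts are alike. The Acot3 probe maps to chr12:84948386-84948445 and the second Acot4 probe to chr12:84932960-84933019, both on the plus strand of mm8.
Acot3: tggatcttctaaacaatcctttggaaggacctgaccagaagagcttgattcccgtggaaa
Acot4: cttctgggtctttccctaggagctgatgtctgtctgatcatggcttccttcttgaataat
Over 32 pairs of probes from different genes of Acot1 to Acot6, the longest run shared by a pair was 4 to 7 of 60 bases. The second Acot4 probe gave a change of 1.58 in mutants and 1.99 in controls. Whether a probe also reads the transcript of a family member was not tested.

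Bdh1, which interconverts acetoacetate and 3-hydroxybutyrate, rose in both genotypes. Bdh1 read 6.86, 6.80 and 7.06 in day 2 mutants and 7.76, 7.48 and 7.54 in day 2 controls. Bdh1 at day 0 read 6.19, 6.11 and 5.41 in mutants and 5.94 and 6.25 in controls. The 3 day 2 controls were above the 3 day 2 mutants, which were above all day 0 arrays. Bdh1 rose by 1.00 ± 0.21 (SE, adjusted p = 0.0138) in mutants and 1.49 ± 0.24 (SE, adjusted p = 0.00716) in controls, and the day 2 difference of -0.69 ± 0.21 (SE, adjusted p = 0.0577) did not pass, except without day 0 mutant replicate 3, where it was -0.69 ± 0.13 (SE, adjusted p = 0.00625). Its second probe gave a change of 1.40 in mutants and 0.80 in controls, the opposite order of the genotypes.

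Among the genes for fasting signals, fuel choice and lipid storage, Fabp1 differed between the genotypes with the smallest p of all members over both days. Fabp1 is the abundant fatty acid-binding protein of the liver cytosol. Fabp1 read 7.96, 8.02 and 7.99 in day 2 mutants and 8.68, 8.44 and 8.49 in day 2 controls. Fabp1 at day 0 read 7.61, 7.36 and 7.45 in mutants and 8.03 and 8.08 in controls. The 4 groups did not overlap in either comparison of genotypes, with the mutants lower on each day. The mutant minus control difference was -0.56 ± 0.09 (SE, adjusted p = 0.004) over both days, 1.48-fold lower, -0.54 ± 0.13 (SE, adjusted p = 0.0183) at day 2 and -0.58 ± 0.14 (SE, adjusted p = 0.0733) at day 0. Quantile scaling gave -0.35 ± 0.10 (SE, adjusted p = 0.0506) over both days and 0.01 ± 0.14 (SE, adjusted p = 0.97) at day 2, and the authors' table -0.03 ± 0.13 (SE, adjusted p = 0.929) at day 2, so the day 2 call rests on the scaling. With age Fabp1 rose by 0.52 ± 0.13 (SE, adjusted p = 0.0214) in mutants and had a change of 0.48 ± 0.14 (SE, adjusted p = 0.0563) in controls. Leaving out day 0 mutant replicate 3, the day 0 difference was -0.57 ± 0.14 (SE, adjusted p = 0.0493) and the change in controls 0.48 ± 0.12 (SE, adjusted p = 0.024), both past the threshold.

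The Fabp1 probe maps to chr6:71134491-71134550 on the plus strand of mm8. Its promoter is shown because Fabp1 led the genotype difference and was the 1 member of 28 with a promoter window that held a match to AGGNCANAGGNCA, a direct repeat of the nuclear receptor core with 1 base between, of the kind PPARα with RXR binds. Both strands were searched; the repeat was found in 0.338% of 32851 promoter windows of mouse genes, and the single core AGGTCA in 14.0% of windows and in 6 of the 28 members (Acadm, Acadvl, Acot4, Cpt1a, Fabp1 and Plin2). TGGGAA, the core bound by RBPJ, the DNA-binding partner of NICD, was in 21.6% of windows and in 9 of 28 members (Acaa1a, Acadvl, Acot3, Acsl1, Bdh1, Pdk4, Pex11a, Plin2 and Slc25a20), not in Fabp1. A member was counted if any of its windows held a match, whereas the percentages are of single windows. A gene with several windows has more chances of a match, so these counts and percentages cannot be set against each other. No share by gene is given. These spellings were chosen after several had been looked at, and a match is a description of letters and not of binding. The window is the 250 bases before the start of Fabp1, chr6:71199629-71199878 on the plus strand (RefSeq, GRCm38.p6), and capitals mark the repeat, at positions -67 to -55 from the start and with 1 core inside it, and another core at positions -9 to -4, both on the minus strand.
Fabp1, probe: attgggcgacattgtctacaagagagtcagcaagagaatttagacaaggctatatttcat
Fabp1, promoter: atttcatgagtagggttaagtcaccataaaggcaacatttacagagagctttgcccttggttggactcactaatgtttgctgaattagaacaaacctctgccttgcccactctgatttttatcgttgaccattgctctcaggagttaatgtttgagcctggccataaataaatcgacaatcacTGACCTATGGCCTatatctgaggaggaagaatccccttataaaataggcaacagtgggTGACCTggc

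Vnn1, a pantetheinase that releases the coenzyme A precursor pantothenate and a known PPARα target, was the 1 member higher in mutants at day 2. Vnn1 read 1.61, 2.72 and 1.88 in day 2 mutants and 1.17, 0.96 and 0.73 in day 2 controls. Vnn1 at day 0 read 1.62, 1.39 and 1.31 in mutants and 1.28 and 1.38 in controls. At day 2 all mutants were above all controls, and at day 0 the genotypes overlapped. The day 2 difference was 1.12 ± 0.26 (SE, adjusted p = 0.0201), 2.17-fold, and 1.16 ± 0.25 (SE, adjusted p = 0.0155) with quantile scaling; over both days it was 0.61 ± 0.20 (SE, adjusted p = 0.0669). Its change with age was 0.63 ± 0.26 (SE, adjusted p = 0.113) in mutants and -0.38 ± 0.29 (SE, adjusted p = 0.427) in controls, neither past the threshold.

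Fgf21, the fasting hormone that liver secretes, had the largest fitted differences and the largest spread. Fgf21 read -3.65, -4.49 and -2.76 in day 2 mutants and -1.27, -1.23 and 2.64 in day 2 controls. Fgf21 at day 0 read -5.92, -7.13 and -1.88 in mutants and -1.39 and -3.94 in controls. The day 2 mutants were all below the day 2 controls, replicate 3 was the highest array of its group at day 2 in both genotypes and in the day 0 mutants, and 1 day 0 mutant was not well above background. Fgf21 differed between genotypes by -3.67 ± 1.46 (SE, adjusted p = 0.121) at day 2 and -2.99 ± 1.10 (SE, adjusted p = 0.0994) over both days, past the threshold in neither. With slide as a block, which at day 2 pairs the arrays, it was -3.67 ± 0.73 (SE, adjusted p = 0.0167) at day 2 and -3.54 ± 0.56 (SE, adjusted p = 0.00702) over both days, past the threshold in both. Without day 0 mutant replicate 3 the value was -3.77 ± 0.89 (SE, adjusted p = 0.0164) over both days and -3.67 ± 1.12 (SE, adjusted p = 0.0396) at day 2.

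Pdk4, the kinase that shuts pyruvate out of oxidation, lay at 2.30 to 3.07 in day 2 mutants and 1.78 to 2.44 in day 2 controls, against 0.76 to 3.42 in day 0 mutants and 1.91 to 2.26 in day 0 controls. The highest of these is day 0 mutant replicate 3; without that array the rise in mutants was 1.90 ± 0.28 (SE, adjusted p = 0.00377), and with it the change was 1.04 ± 0.61 (SE, adjusted p = 0.237). In controls it was 0.13 ± 0.68 (SE, adjusted p = 0.918). The lipid droplet proteins Plin2, the coat of hepatocyte droplets, and Cidec, which fuses droplets, rose in both genotypes. Plin2 read 6.71, 7.26 and 7.04 in day 2 mutants and 7.18, 7.11 and 7.01 in day 2 controls. Plin2 at day 0 read 5.92, 5.75 and 6.29 in mutants and 5.87 and 5.83 in controls. The days separated and the genotypes overlapped on each. Plin2 rose by 1.02 ± 0.18 (SE, adjusted p = 0.00762) in mutants and 1.25 ± 0.21 (SE, adjusted p = 0.00823) in controls. Cidec read -0.61, 0.89 and 0.54 in day 2 mutants and -1.14, -0.22 and 0.90 in day 2 controls. Cidec at day 0 read -4.0, -3.43 and -2.97 in mutants and -3.85 and -3.49 in controls. Cidec had the largest rise of all members, 3.74 ± 0.54 (SE, adjusted p = 0.0033) in mutants and 3.52 ± 0.60 (SE, adjusted p = 0.00935) in controls, 13.3-fold and 11.5-fold, and the genotypes overlapped on both days. Of 6 adipocyte markers, Adipoq, Lep, Cfd, Retn and Plin1 did not pass the filter on background and Lipe alone was tested, with a change with age of 0.33 ± 0.19 (SE, adjusted p = 0.236) in mutants and 0.49 ± 0.22 (SE, adjusted p = 0.166) in controls; its part in the rise of Cidec was not tested.

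**Figure D4:**
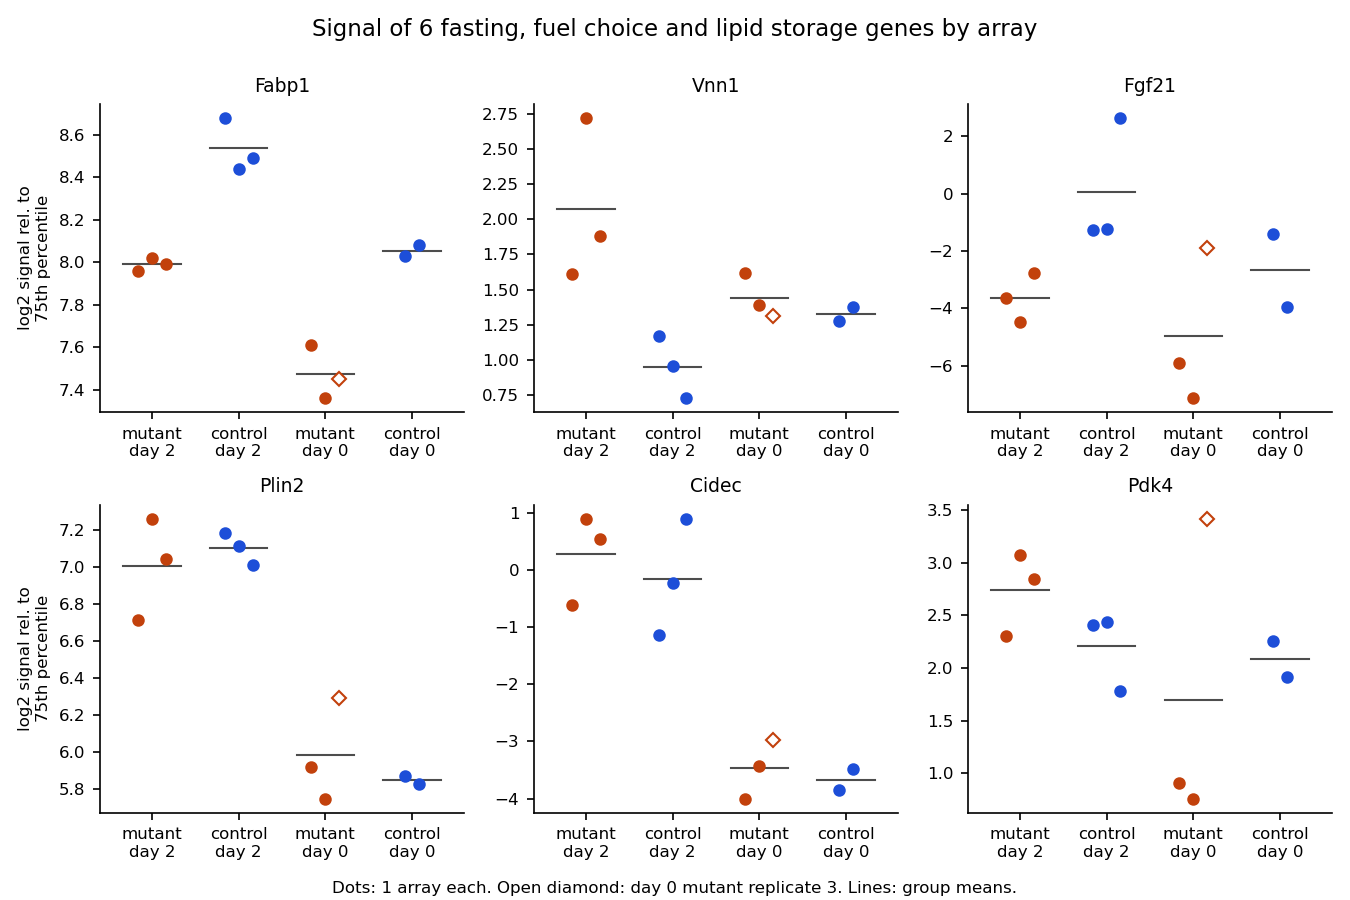
Log2 signal relative to the array's 75th percentile on each of the 11 arrays for Fabp1, Vnn1, Fgf21, Plin2, Cidec and Pdk4, with day 2 mutants, day 2 controls, day 0 mutants and day 0 controls from left to right and a bar at each group mean; the open diamond is day 0 mutant replicate 3. Cidec and Plin2 separate the days, Vnn1 and Fabp1 separate the genotypes at day 2, and Fgf21 spreads widely within its groups.

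The other genes of the pathway came from lists that were also drawn up with earlier results of these data known, and they are described by counts and medians beside the same shares of all genes given above. Of 26 other peroxisomal oxidation genes, 12 rose with age in mutants and 8 in controls, with median changes of 0.59 and 0.50. Acaa1b, the second peroxisomal thiolase, rose by 2.14 ± 0.19 (SE, adjusted p = 0.000391) in mutants and 2.44 ± 0.21 (SE, adjusted p = 0.000633) in controls. Crot, which makes carnitine esters of the shortened chains, rose by 1.52 ± 0.23 (SE, adjusted p = 0.00413) in mutants and 3.06 ± 0.26 (SE, adjusted p = 0.000633) in controls, and Abcd3, a fatty acyl-CoA importer, by 1.31 ± 0.20 (SE, adjusted p = 0.00396) in mutants and 1.46 ± 0.22 (SE, adjusted p = 0.00606) in controls. In the same list 9 genes were lower in mutants over both days and none higher, with a median difference of -0.39; with quantile scaling 7 were lower and the median was -0.31.

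Among the genes of that list lower in mutants were transporters of very long chains. Abcd2 read -0.63, -1.20 and -0.73 in day 2 mutants and 0.15, 0.03 and 0.14 in day 2 controls. Abcd2 at day 0 read -1.50, -1.29 and -1.89 in mutants and 0.22 and 0.03 in controls. All mutants of a day lay below all controls of that day for Abcd2. Abcd2, an importer of very long chains, had a difference over both days of -1.32 ± 0.15 (SE, adjusted p = 0.000435), and -1.35 ± 0.15 (SE, adjusted p = 0.000452) with quantile scaling. Slc27a2, which takes up and activates very long chains, had -0.98 ± 0.16 (SE, adjusted p = 0.00373). Of the 3 peroxisomal members, by comparison, Ehhadh was lower over both days and Acaa1a and Pex11a passed in neither direction.

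Of 22 other mitochondrial oxidation genes, 6 rose with age in mutants and 6 in controls, with median changes of 0.49 and 0.43. Over both days 4 were lower in mutants and 1 was higher (Cpt1c, named after its values were seen, which passed under no other scaling tried), with a median difference of -0.26; with quantile scaling the counts were 3 lower and 0 higher, and the median -0.15. Acsl5, a long-chain acyl-CoA synthetase like Acsl1, had a difference of -1.02 ± 0.16 (SE, adjusted p = 0.00279), and Acad11, a dehydrogenase, -0.84 ± 0.17 (SE, adjusted p = 0.0112). Acsl6, also in this list, was below background in the day 0 controls. It passed the filter only through the day 2 controls, where it is highest, so its change with age in controls is a bound.

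Ketone bodies are made from acetyl-CoA in steps that begin with Acat1, before Bdh1 acts, and 6 of 9 other ketone body genes were lower in mutants over both days and 1 higher, with 2 lower and 1 higher under quantile scaling. Acat1 read 5.45, 5.20 and 5.58 in day 2 mutants and 6.10, 6.19 and 6.10 in day 2 controls. Acat1 at day 0 read 5.45, 5.57 and 4.31 in mutants and 6.06 and 6.06 in controls. Acat1, the thiolase of the first step, had a difference of -0.83 ± 0.22 (SE, adjusted p = 0.0308) over both days, which with slide as a block had an adjusted p of 0.0612. Bdh2, a cytosolic dehydrogenase named for 3-hydroxybutyrate, was higher in mutants by 1.42 ± 0.22 (SE, adjusted p = 0.00297).

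Of the list of Ppara and its partners, 16 genes, 5 were lower in mutants over both days and none higher, and 5 were lower under quantile scaling. Ppara read 1.17, 0.86 and 1.47 in day 2 mutants and 2.54, 2.28 and 2.35 in day 2 controls. Ppara at day 0 read 2.20, 2.19 and 2.84 in mutants and 2.65 and 2.82 in controls. The 3 day 2 mutants were below every other array, while the day 0 genotypes overlapped. The mutant minus control difference of Ppara was -1.22 ± 0.22 (SE, adjusted p = 0.00573) at day 2 and -0.77 ± 0.16 (SE, adjusted p = 0.0127) over both days, and the test of the difference between days gave -0.90 ± 0.33 (SE, adjusted p = 0.263). With age it fell in mutants by 1.24 on the log2 scale (adjusted p = 0.0069), and its change in controls was -0.34 ± 0.24 (SE, adjusted p = 0.381). Ppargc1a, a coactivator of oxidation genes, had a difference over both days of -0.49 ± 0.29 (SE, adjusted p = 0.294).

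Markers of several cell types of newborn liver moved with the groups as well. Endothelial markers hardly differed by genotype as a set: of 7, 1 was lower and 0 higher in mutants at day 2. Their median difference was -0.11, against -0.095 for all genes, with 3 positive and 4 negative. Hepatocyte markers were present: 12 of 13 were tested, all but Serpina1a. All 12 had a negative mutant minus control difference over both days and at day 2, with medians of -0.49 and -0.66. Of the 12, 7 were lower in mutants over both days and 8 at day 2, and their summed signal, in units of each array's 75th percentile, was 2640 to 2820 in day 2 mutants and 3590 to 4770 in day 2 controls, against 3850 to 4900 in day 0 mutants and 4360 to 4670 in day 0 controls. Saturated probes carry much of that sum (Alb in every group, Fgb in both day 0 groups and Ahsg on 1 day 2 control); over the 9 other genes it was 1270 to 1400 in day 2 mutants and 1830 to 2340 in day 2 controls, against 1750 to 2090 in day 0 mutants and 2090 to 2320 in day 0 controls. With quantile scaling 3 of the 12 were lower over both days and 1 at day 2. Of 10 bile duct markers 9 were higher in mutants over both days, with sums of 237 to 283 in day 2 mutants and 18.6 to 25.3 in day 2 controls, and 101 to 352 in day 0 mutants and 28.5 to 32.2 in day 0 controls; 9 were higher under quantile scaling too. Cldn4 is counted among them, although it was below background in both control groups. It passed the filter only through the day 2 mutants, where it is high, so its difference is a bound and its place in the count carries no weight. Spp1 carries most of the sums in mutants, with 7.90, 7.61 and 7.62 at day 2. Of 9 erythroid markers 7 were lower in mutants at day 2, with sums of 420 to 607 in day 2 mutants and 901 to 1140 in day 2 controls, and 957 to 1450 in day 0 mutants and 1130 to 1220 in day 0 controls. Most of that sum is Hba-a1, saturated in both day 0 groups and on 2 day 2 controls; the 8 other genes summed to 41 to 79.8 in day 2 mutants and 146 to 233 in day 2 controls, and 190 to 228 in day 0 mutants and 252 to 259 in day 0 controls. Of 8 macrophage markers 2 were lower in mutants at day 2 and 7 had a negative difference, with sums of 79.7 to 133 in day 2 mutants and 96.5 to 107 in day 2 controls, and 85.9 to 99.1 in day 0 mutants and 91 to 128 in day 0 controls. Much of that sum is Marco, the 1 marker with a positive day 2 difference, so the sum says little of the other 7. Of 8 stellate and matrix markers 2 were higher in mutants at day 2, with a median difference of 0.89 and sums of 110 to 142 in day 2 mutants and 66.4 to 72 in day 2 controls, and 97.3 to 213 in day 0 mutants and 118 to 119 in day 0 controls. In whole liver, fewer cells of a type and less RNA per cell cannot be told apart, and the part of these shifts in the differences of Fabp1, Acadvl, Hadh, Acsl1 and Ehhadh was not tested. Between the days the hepatocyte markers had a median change of -0.51 in mutants, with 6 of 12 lower and 2 higher, and of -0.14 in controls, with 1 higher; these medians were 0.01 in mutants with quantile scaling and 0.06 in controls with median scaling, while the 32 members had 0.85 in mutants and 0.90 in controls.

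**Figure D5:**
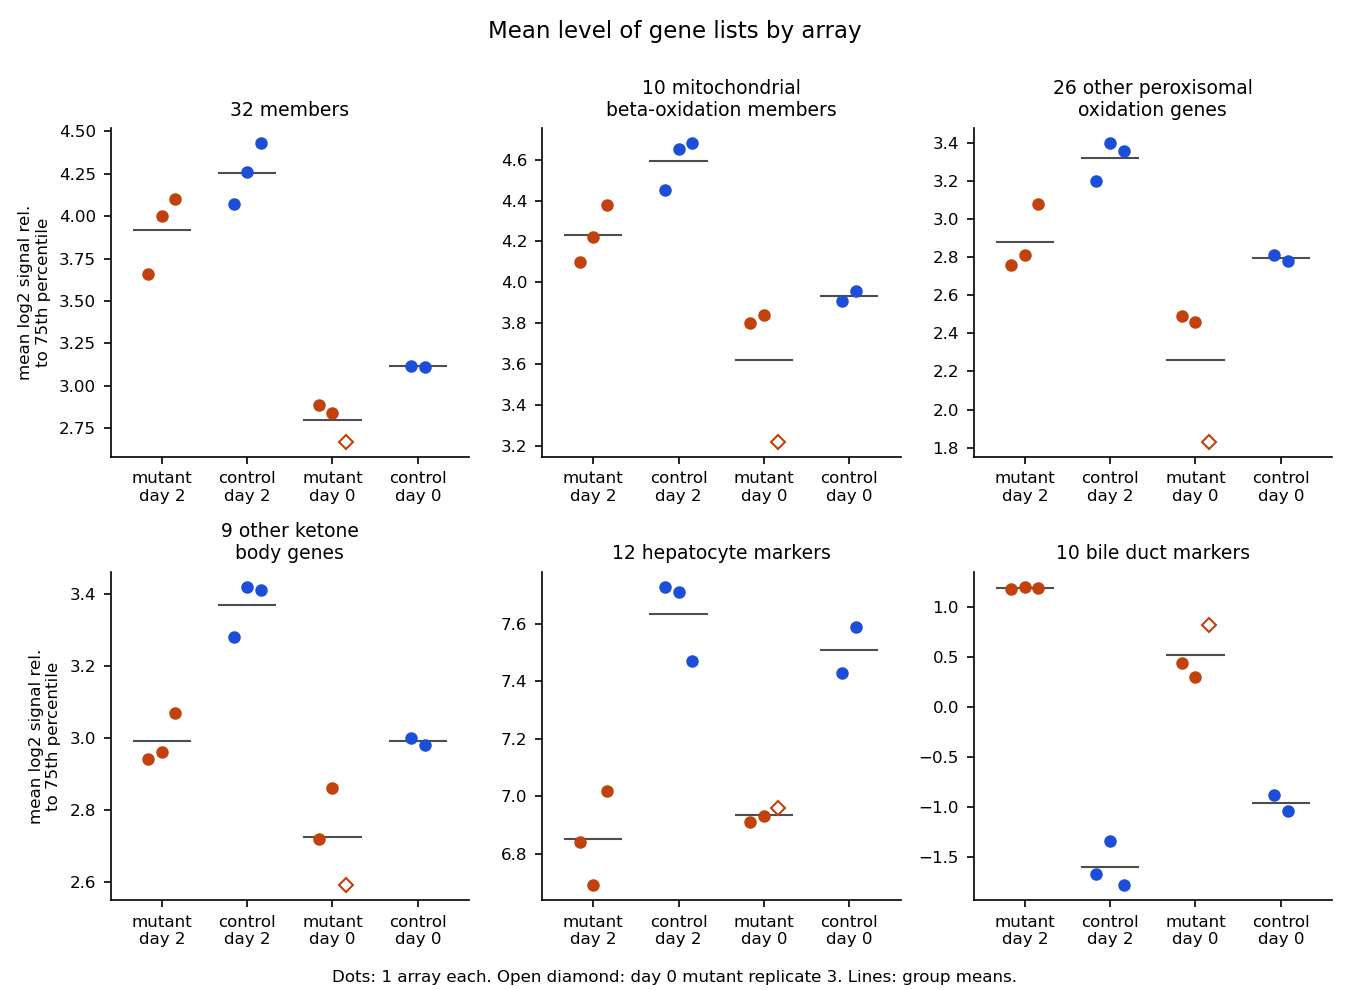
Mean log2 signal relative to the array's 75th percentile, per array, over the 32 members, the 10 mitochondrial beta-oxidation members, 26 other peroxisomal genes, 9 other ketone body genes, 12 hepatocyte markers and 10 bile duct markers, with day 2 mutants, day 2 controls, day 0 mutants and day 0 controls from left to right and a bar at each group mean; the open diamond is day 0 mutant replicate 3. The members' mean was 3.66 to 4.10 in day 2 mutants and 4.07 to 4.43 in day 2 controls, against 2.67 to 2.89 in day 0 mutants and 3.11 to 3.12 in day 0 controls, and the bile duct markers separate the genotypes on both days.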

How the data were processed

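The data are 11 one-colour arrays, 1 newborn liver sample each. Per the file headers, the deposited array files hold spot intensity and a processed signal that the authors made with Feature Extraction 9.5.3.1 from Agilent, protocol GE1-v5_95_Feb07 (design 014868, probe map mm8); it is background-subtracted, and arrays have no common scale. A deposited table of the authors' log2 values, by RMA per the submitters' processing notes, has column medians of 7.608 to 7.637; further steps behind it are not given in the sources used here, and it served as an alternative.

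The processed signal was taken as log2 minus the array's 75th percentile over non-control spots, averaging the spots of each probe. Kept were probes well above background on all arrays of 1 group or more (27093 of 41174), and a gene was read from its brightest probe (15953 genes). Symbols were updated through accession, symbol or synonym in RefSeq's gene table (23374, 6733 and 2919 probes), 1845 kept the file's name and 6303 had none. limma 3.58.1 in R 4.3.3 fitted 1 mean per group of genotype and day to all 11 arrays, leaving 7 residual degrees of freedom. The adjustment was Benjamini-Hochberg over all 15953 genes, at a threshold of 0.05. All adjusted p in the text are of this kind. The steps were tested on simulated data. Precision is limited by the 11 arrays; no label says that samples of a group came from separate animals, so p-values measure the spread between these samples, which may be technical.

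All 32 members are named. Those past the threshold, or with groups that do not overlap and a difference of at least 1 log2 unit, have their value on every array; of other lists at most 4 genes past the threshold were named in a comparison, by p. The members and all lists were chosen with earlier results of these data known. Replicate numbers are slide numbers: at day 2 the deviations of same-numbered mutants and controls correlated at 0.29, 0.231 and 0.256, so slide pairs them, and at day 0 at 0.0622 and 0.092. Fits with slide as a block are given beside a result where they change its call. Pup sex was read from Xist and Y-linked genes. Alternatives were the background correction, the scaling, the authors' table, the filter, the probe rule, the block, pup sex, array weights, an intensity trend, the contrast's groups alone and each array left out. Some genes of the other lists, and 1 probe sequence, are not reported here.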

Additional observations from a re-analysis of the deposited data

How the results depend on the processing

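The rise of the members with age kept its direction under every alternative, and 17 of 46 single-gene calls held under all of them: Acot2, Acot3 and Ehhadh in controls, and Acaa1a, Acadl, Acot1 to Acot4, Cidec, Cpt1a, Cpt2, Eci1, Ehhadh, Etfdh, Plin2 and Slc25a20 in mutants. The count of members lower in mutants over both days (5) was 0 with quantile scaling, 3 with median scaling, 2 in the authors' table, 1 with pup sex as a covariate and 9 with array weights, and the count of members higher (0) was 1 with quantile scaling, 2 in the authors' table, 2 with array weights and 1 with an intensity trend. At day 2 the count lower (3) was 0 with quantile scaling, 1 in the authors' table, 6 for genes above background on all arrays, 5 with the mean of probes, 12 with array weights, 6 with an intensity trend and 8 with the groups of the contrast alone, and the count higher (1) was 2 with quantile scaling and 2 in the authors' table. The day 2 difference of Fabp1 turned to 0.01 with quantile scaling. At day 0 the count lower (0) was 1 with quantile scaling, 1 in the authors' table, 2 with array weights and 1 with an intensity trend. In controls 4 members rose with pup sex as a covariate, and Pex11a, the 1 that fell, did not pass (0) with median scaling, no filter, the replicate block, pup sex or the contrast's groups alone. The replicate block changed no other count by over 1.5 times. Calls over all genes, in either direction, moved as well. Of 15953 genes at day 2 these were 5593 with array weights, 3926 with the contrast's groups alone and 2250 with quantile scaling. They were 2808 with an intensity trend, 2528 with the mean of probes, 2504 of 13989 above background on all arrays, and 2214 of 15917 in the authors' table. The main fit had 1535 higher and 1047 lower. Over both days they were 4862 with array weights and 1081 with pup sex, against 1401 higher and 1105 lower. There they were also 2440 with quantile scaling, 2283 with median scaling, 2676 with an intensity trend and 2429 of 15917 in the authors' table. At day 0 they were 398 with quantile scaling, 1283 with array weights, 409 with an intensity trend and 379 of 15917 in the authors' table. The main fit at day 0 had 254 higher and 112 lower. In controls with age they were 316 with pup sex, against 871 higher and 913 lower. There they were also 1751 with median scaling, 1311 with the replicate block, 2478 with the contrast's groups alone and 1193 of 21313 with no filter. The cause of these moves was not tested.

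Leaving out 1 array at a time, other than a day 0 control, gave 0 to 2 members higher and 1 to 6 lower over both days. At day 0 it gave 0 higher and 0 to 1 lower, and at day 2 0 to 1 higher and 0 to 12 lower. With age 13 to 25 rose and 0 to 1 fell in controls, and 15 to 20 rose and 0 fell in mutants. The 0 lower at day 2 came without day 2 mutant replicate 1 or 2. Of 15952 genes, 1642 and 1412 were then called in either direction. The 12 and the 25 came without day 0 mutant replicate 3, where 4766 and 4353 of 15941 genes were called. The 13 came without day 2 control replicate 2 or 3, and the 1 over both days without day 2 control replicate 2. Without the first or second day 0 control, which leaves 1 array in that group, the members' median change in controls was 0.89 or 0.94. The members' median change in the difference between days, -0.15, was 0.26 with quantile scaling and 0.25 in the authors' table. All genes' median moved by over 0.1 with median scaling, to 0.177 with age in mutants and 0.179 in controls, while the members' medians were 1.04 and 1.10; with no filter it was -0.163 with age in mutants.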

Other observations

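Among 30 other fasting and PPARα target genes tested, 8 rose and 5 fell with age in mutants, and 9 rose and 3 fell in controls. Cyp4a14 read 6.87, 7.34 and 7.40 in day 2 mutants and 8.07, 8.28 and 8.01 in day 2 controls. Cyp4a14 at day 0 read 2.69, 1.55 and 1.46 in mutants and 4.52 and 5.57 in controls. Cyp4a14, a fatty acid omega-hydroxylase, rose by 5.30 ± 0.36 (SE, adjusted p = 0.000156) in mutants and 3.08 ± 0.41 (SE, adjusted p = 0.0038) in controls; its mutant minus control difference was -2.03 ± 0.27 (SE, adjusted p = 0.0012) over both days and -3.15 ± 0.41 (SE, adjusted p = 0.00537) at day 0. Cyp4a10, a near relative, had a difference of -1.71 ± 0.39 (SE, adjusted p = 0.017) over both days; whether the probes also read each other's transcripts was not tested. Acot12, an acetyl-CoA thioesterase, was lower in mutants, with a difference of -1.02 ± 0.13 (SE, adjusted p = 0.000778) over both days. Fabp3 read -0.22, -0.37 and -0.13 in day 2 mutants and -3.19, -3.17 and -3.75 in day 2 controls. Fabp3 at day 0 read 0.29, -0.91 and 0.19 in mutants and -2.41 and -2.55 in controls. Fabp3, the heart-type fatty acid-binding protein, was higher in mutants by 2.73 ± 0.23 (SE, adjusted p = 8.18e-05) over both days, with all mutants of a day above all controls, and 2.71 ± 0.22 (SE, adjusted p = 7.72e-05) with quantile scaling, while Fabp1 was lower.

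Acetyl-CoA that does not become ketone bodies enters the tricarboxylic acid cycle, and of 18 cycle genes 3 rose with age in mutants and 4 in controls, with median changes of 0.33 and 0.46. Fh1, the fumarase, and Sucla2, a subunit of succinyl-CoA ligase, rose in both genotypes: Fh1 by 0.64 ± 0.17 (SE, adjusted p = 0.0269) in mutants and 0.88 ± 0.19 (SE, adjusted p = 0.0203) in controls, and Sucla2 by 0.57 ± 0.17 (SE, adjusted p = 0.0427) in mutants and 0.82 ± 0.19 (SE, adjusted p = 0.0277) in controls. The mutant minus control difference was negative for 15 of the 18 over both days and for 15 at day 2, with medians of -0.15 and -0.26. The day 2 median was 0.02 with quantile scaling. By genotype 1 of 18 passed over both days, Idh2, the mitochondrial isocitrate dehydrogenase, at 0.43 ± 0.11 (SE, adjusted p = 0.027) in mutants minus controls, and it missed the threshold with median scaling, at 0.40 ± 0.14 (SE, adjusted p = 0.084).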
